A study of Drosophila melanogaster with 9 samples.

Results

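The genes described here supply the chromophore of the fly's visual pigments. A rhodopsin is an opsin protein that carries a retinal chromophore, and flies make that chromophore from carotenoids taken up with the food. ninaD encodes a class B scavenger receptor needed for carotenoid uptake, a role traced to the midgut, and ninaB encodes the oxygenase that cleaves carotenoids to retinal. Without chromophore the opsin is not brought to its mature form, and the photoreceptors hold little rhodopsin.

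The set was drawn up as 10 genes, the opsin genes ninaE and Rh2 to Rh6, the opsin maturation and rhabdomere genes ninaA and ninaC, and the chromophore genes ninaB and ninaD. Members were the probe sets whose gene symbol in the platform annotation is one of these. That annotation named 2 of the 10, ninaB and ninaD, with 1 probe set each, among 18769 probe sets that are not controls. Probe sets for the other 8 genes could not be named and are not analysed here, so no rhodopsin of the outer or inner photoreceptors is described. Both named probe sets stood above log2 4 on all 9 arrays and entered the tests.

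Female flies of the wild-type laboratory strain Canton-S were sampled at 10 days of age, and total RNA of head and thorax was measured on Affymetrix arrays. The diets were normal, restricted, or normal with the plant polyphenol resveratrol added, with 3 biological replicates of each and at least 75 flies in a pool. All groups shared strain, sex, age and tissue. What the diets contained, and how much resveratrol was given, is not stated in the labels. Values are GCRMA log2 probe set summaries, which have no true zero, and levels are compared between diets and never between probe sets. In such bulk RNA, fewer cells of a type and less RNA per cell cannot be told apart.

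The labelled tissue was set beside lists of marker genes. All 15 tested phototransduction genes, all 10 tested neuron genes and all 10 tested muscle genes lay above log2 4 on every array. Genes were tested only if they reached log2 4 on enough arrays, so these counts are in part fixed by the filter. Every named phototransduction and muscle gene was tested, but the named neuron gene VGlut was not. Midgut markers were also present, with 0 to 4 of 14 under log2 4 on an array, and the mean of 6 germline genes ran from 5.31 to 8.50 across arrays. Over all probe sets, replicates of a diet correlated at 0.994 to 0.998 and arrays from different diets at 0.985 to 0.998. In limma 1604 of 8822 genes differed between the restricted and the normal diet at an adjusted p under 0.05, 20 between resveratrol and the normal diet, and 224 between the restricted diet and resveratrol. Genes in such counts and in shares of all genes include probe sets that name no gene or several genes, each counted on its own.

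ninaB was lower on the restricted diet than on the normal diet. Its log2 values were 8.69, 8.52 and 8.63 on the normal diet and 8.26, 8.10 and 8.31 on the restricted diet. The diets did not overlap, and the highest restricted-diet array lay below the lowest normal-diet array. The mean went from 8.61 ± 0.08 to 8.22 ± 0.11 (SD, n = 3), so ninaB fell by 0.39 on the log2 scale (SE 0.08, 95% interval -0.57 to -0.22, adjusted p = 0.0166 in limma). On the linear scale the level was 1.31-fold lower. Among all genes tested, 12.9% were called lower in this comparison and 18.2% were called in either direction, so 1 call among the 2 members is not read as a property of the pair. For 44.8% of all genes the values of these diets did not overlap. A larger absolute change was seen for 22.1% of genes. The change was -0.36 and the call ended when replicate 1 of the normal diet was left out (adjusted p = 0.0596).

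ninaD had higher values on the restricted diet, but the difference did not pass the test. The normal-diet arrays stood at 6.34, 4.46 and 7.71, and the restricted-diet arrays at 8.30, 7.94 and 7.63. The groups overlapped, because normal-diet replicate 3 lay just above restricted-diet replicate 3. The mean was 6.17 ± 1.63 on the normal diet and 7.96 ± 0.33 on the restricted diet (SD, n = 3). The difference was 1.79 (SE 0.71, 95% interval 0.14 to 3.43, adjusted p = 0.111 in limma), or 3.45-fold on the linear scale. Only 1.73% of genes had a larger absolute difference, yet 2943 genes had a smaller p. The outcome depended on which normal-diet arrays were included. Without replicate 3 of that diet the difference was 2.55 and passed (adjusted p = 0.0258). It was 0.93 and did not pass when replicate 2 was left out.

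The members differed most in how far replicates lay apart. On the normal diet the SD of ninaD was 1.63 against a median of 0.10 over all genes, and 0.929% of genes had a larger SD. On the restricted diet and with resveratrol the SD of ninaD was 0.33 and 0.43, against medians of 0.11 for both, and 8.42% and 6.35% of genes had a larger SD. For ninaB the SD was 0.08, 0.11 and 0.07 on the normal diet, the restricted diet and with resveratrol. The lowest ninaD array, normal-diet replicate 2 at 4.46, lay close to the filter level of log2 4. Replicates 1 and 3 of that diet also lay apart, at 6.34 and 7.71. The part of background subtraction in this spread was not tested.

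**Figure D1:**
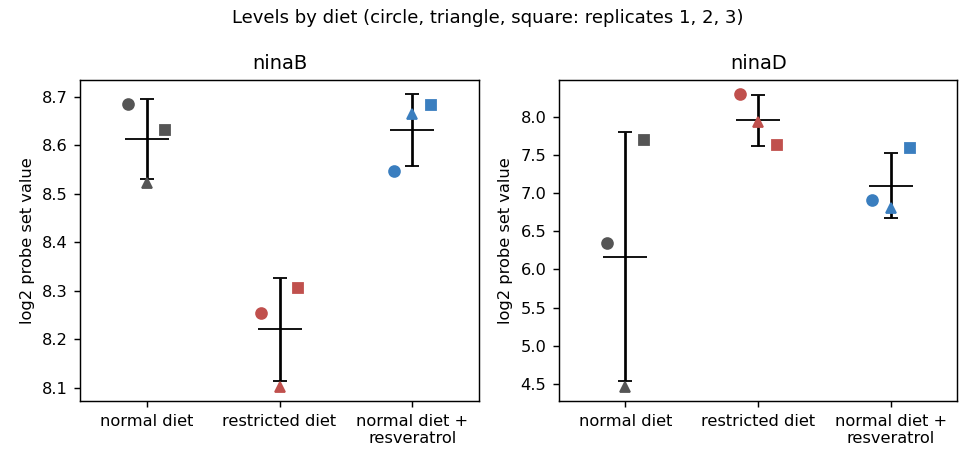
Log2 probe set values of ninaB (left) and ninaD (right) on each array, by diet; symbols give the replicate, horizontal bars the mean and whiskers the SD (n = 3). The restricted-diet ninaB arrays, 8.10 to 8.31, lie below all others, and the normal-diet ninaD arrays spread from 4.46 to 7.71. The vertical axes differ and do not start at 0.

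The effect of adding resveratrol was read from the comparison with the normal diet alone. No difference in ninaB was detected. The resveratrol arrays stood at 8.55, 8.66 and 8.68 and lay within the range of the normal-diet arrays. The mean was 8.63 ± 0.07, and the difference of 0.02 had a 95% interval of -0.16 to 0.19 (SD, n = 3; adjusted p = 0.956 in limma). The sign of so small a difference turned with the scaling, to -0.09 with each array centred on its median. In this comparison 0.227% of all genes passed, and neither member did.

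For ninaD the resveratrol arrays stood at 6.91, 6.80 and 7.59, a mean of 7.10 ± 0.43 (SD, n = 3). All 3 lay between normal-diet replicates 1 and 3. The difference from the normal diet was 0.93 with a 95% interval of -0.72 to 2.58 (adjusted p = 0.745 in limma). The interval is wide enough to hold a change as large as that measured on the restricted diet. Without normal-diet replicate 2 the difference was 0.08.

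The restricted diet was also set against resveratrol, which tests directly whether these treatments differ. It shares the restricted-diet arrays with the first comparison. ninaB was lower on the restricted diet by a log2 difference of -0.41 (SE 0.08, 95% interval -0.59 to -0.24), with an adjusted p = 0.045 in limma, where 2.09% of all genes were called lower and 2.54% in either direction. The values did not overlap, as they did not for 31.0% of all genes. This call was close to the threshold and ended in 14 of 19 other settings, with adjusted p up to 0.151, while the sign was negative in all 19. Leaving out any array except normal-diet replicate 2 ended it. For ninaD the difference was 0.85 (95% interval -0.79 to 2.50, adjusted p = 0.464 in limma), although all 3 restricted-diet values lay above all 3 resveratrol values.

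Across the diets the ninaB level was highest with resveratrol, next on the normal diet and lowest on the restricted diet. The first neighbours in that order did not differ beyond their spread. The ninaD level was highest on the restricted diet, then with resveratrol, then on the normal diet, and no step in this order passed the test.

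**Figure D2:**
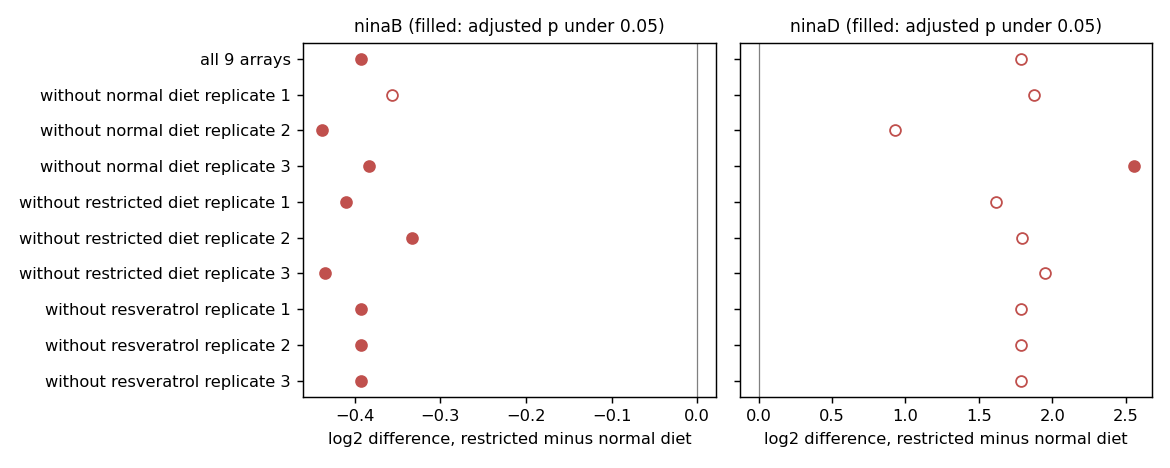
Log2 difference between the restricted and the normal diet for ninaB (left) and ninaD (right) with all 9 arrays and with each array left out; filled points have an adjusted p under 0.05 in limma. ninaB stays between -0.44 and -0.33 and loses the call without normal-diet replicate 1, while ninaD runs from 0.93 to 2.55 and passes only without normal-diet replicate 3.

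The other genes of chromophore supply and opsin folding were taken from a list of 8, of which 6 were named and tested. None of the 6 passed in any of the 3 comparisons in limma. At an unadjusted p under 0.05 there were 2 for the restricted diet against the normal diet, 0 for resveratrol against the normal diet and 1 for the restricted diet against resveratrol, where 37.7%, 9.74% and 25.2% of all genes had such a p. Between the restricted and the normal diet their median difference was -0.23, against -0.05 over all genes, and 5 of the 6 differences were negative, as were 58.7% of all. santa-maria, the scavenger receptor that brings carotenoids to the cells in the head where ninaB acts, had values of 10.57, 10.41 and 10.55 on the normal diet and 10.29, 10.13 and 10.31 on the restricted diet. The groups did not overlap, and the difference was -0.27 (95% interval -0.46 to -0.08, adjusted p = 0.0537 in limma). It passed in 4 of 19 other settings. With resveratrol santa-maria had a difference of -0.06 from the normal diet.

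ninaG, an oxidoreductase that makes the form of chromophore used in the compound eye, had means of 6.16 ± 0.24 and 5.83 ± 0.17 on the normal and the restricted diet (SD, n = 3). The difference of -0.33 did not pass (adjusted p = 0.109 in limma). Retinoids are stored and reworked in the pigment cells around the photoreceptors. Of the genes acting there, rdhB, a retinol dehydrogenase, had a difference of -0.30 without overlap between the diets (adjusted p = 0.202). Pdh, another retinol dehydrogenase, had -0.20 (adjusted p = 0.203). The retinoid-binding protein pinta and the chaperone Cnx99A, which assists opsin folding, had 0.03 and -0.01, and both signs turned under other settings. The interval for pinta ran from -0.16 to 0.23 and does not reach the change of ninaB.

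The only opsin that the annotation named was Rh7, which lies outside the set of 10 and is expressed in the brain. One of its probe sets stood at log2 3.15 to 3.30 on all arrays, below the level at which probe sets were tested. The other stood at 7.21, 7.22 and 6.52 on the normal diet, 5.76, 5.78 and 6.61 on the restricted diet, and 6.59, 6.90 and 7.17 with resveratrol. Restricted-diet replicate 3 lay just above normal-diet replicate 3, so the groups overlapped. The difference was -0.93 (95% interval -1.60 to -0.26, adjusted p = 0.0599 in limma), and it passed in 4 of 19 other settings. Against the normal diet, resveratrol gave -0.09.

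**Figure D3:**
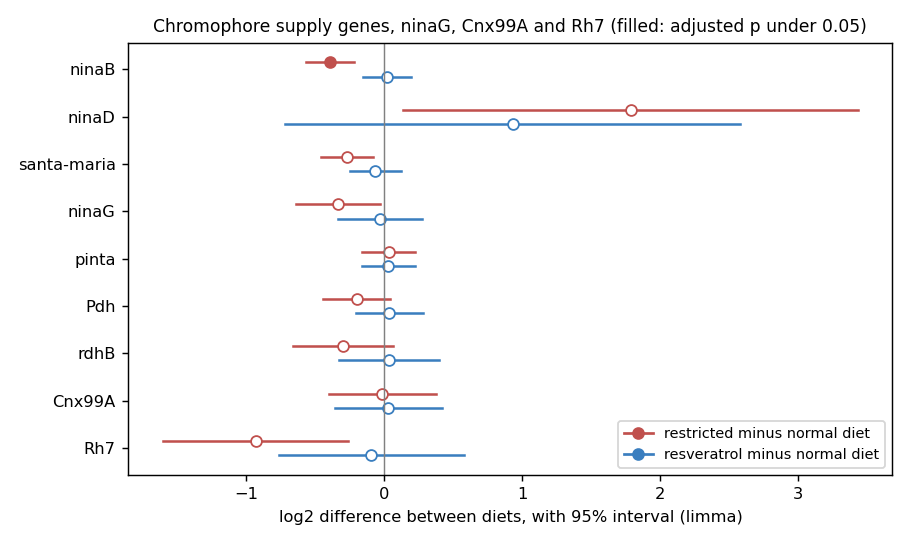
Log2 differences with 95% intervals from limma for ninaB, ninaD, 6 further genes of chromophore supply and opsin folding, and Rh7, for the restricted diet (red) and resveratrol (blue) against the normal diet; filled points have an adjusted p under 0.05. Only ninaB on the restricted diet is filled, and the ninaD intervals are the widest. The comparisons share the normal-diet arrays.

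ninaD belongs to the class B scavenger receptors, a CD36-related family whose members bind lipids and other ligands. The family was compared with it on the same arrays. Of 12 listed, 11 were named and 10 tested. On the restricted diet 1 of these 10 passed, CG2736, which rose by 0.34 from the normal diet (adjusted p = 0.0165 in limma). Its normal-diet values were 12.04, 12.04 and 11.96, and its restricted-diet values were 12.25, 12.34 and 12.46. The call for CG2736 ended with each array centred on its median (adjusted p = 0.0943) and when replicate 1 of the normal diet was left out. The family's median difference was -0.13, with a range from -0.33 to 0.34, while the fitted difference of ninaD, which did not pass, was 1.79 and its interval from 0.14 reached into that range. Relative to the family's mean on the same array, ninaD was higher on the restricted diet by 1.88 (two-sided exact permutation p = 0.2, n = 3, where 0.1 is the smallest p that 3 against 3 allows), so a difference between ninaD and its family was not shown.

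The ninaB change was set beside the genes that mark photoreceptors. Their list, like those below, was chosen with earlier results of these data known, so its counts are a description. Of 17 phototransduction genes listed, 15 were tested, and 12 fell and 3 did not pass on the restricted diet, with a median of -0.42 against -0.05 over all genes, of which 12.9% fell. inaC, a protein kinase C of photoreceptors, fell by 0.71, and Galphaq, the G protein that rhodopsin activates, fell by 0.45. The mean of the 15 genes ran from 11.19 to 11.32 on the normal diet, 10.80 to 10.89 on the restricted diet and 11.09 to 11.23 with resveratrol. Relative to this mean on the same array, ninaB differed between the restricted and the normal diet by 0.04 (two-sided exact permutation p = 0.5, n = 3), where the relative value had an SD of 0.12 on the normal and 0.16 on the restricted diet. The mean of the list itself moved by -0.44. The relative value depended on the list. Against the mean of the 6 genes of chromophore supply and opsin folding it was -0.21 (exact permutation p = 0.1, the smallest possible), and against the mean of the 10 neuron genes described next it was 0.20 (exact permutation p = 0.3). After Benjamini-Hochberg adjustment over the 5 comparisons of a member with a list, none of these exact p values was under 0.5. Without normal-diet replicate 1 the number of these 15 genes that fell was 6, and with all arrays but no filter it was 10.

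Other eye genes differed in how many fell. All counts here are for the restricted against the normal diet, where 12.9% of all genes fell and the median over all genes was -0.05. Of 10 regulators of photoreceptor fate tested, 6 fell and none rose on the restricted diet (median -0.47). They included glass (gl), a zinc finger factor that directs photoreceptor formation, which fell by 0.63, and spalt major (salm), a zinc finger factor of the inner photoreceptors, which fell by 0.65. The call for gl ended in 4 of 19 other settings. Of 4 rhabdomere and apical membrane genes, chaoptin (chp) fell by 0.65 and 3 did not pass, but 3 of the 4 fell with each array centred on its median. Of 12 screening pigment genes, 2 fell, g and rb, by 0.21 and 0.27, and the median was -0.06, a count and a median close to those over all genes. The calls for g and rb ended in 9 and 7 of 19 other settings. Of 10 neuron genes 9 fell, with a median of -0.52; their mean was 9.39 to 9.65 on the normal diet and 8.90 to 9.02 on the restricted diet. Of 6 glial genes 3 fell, and of 10 muscle genes 6 fell. With 1 array left out, the number that fell was 1 to 6 for the regulators, 5 to 9 for the neuron genes, 0 to 4 for the glial and 1 to 4 for the muscle genes. The lowest numbers came without normal-diet replicate 1, which the regulators and glial genes shared with replicate 2 of that diet; the glial count was also 0 without restricted-diet replicate 1 or 3. The counts also depended on the filter. With all arrays kept and no filter, 1 regulator, 7 neuron genes, 0 glial genes and 2 muscle genes fell. Whether the lower ninaB value goes with the share of eye or neural tissue in the RNA was not tested.

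RNA control probe sets moved with the restricted diet in part. The difference between the 3' and 5' probe sets of 18S ribosomal RNA was 0.07 to 0.50 on the restricted diet and 0.66 to 0.91 on the normal diet, without overlap. The same difference for actin, eIF-4a and GAPDH overlapped between these diets. Their part in the ninaB result was not tested.

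ninaD was set beside markers of the midgut, where its function is known. Midgut markers, too, were listed with earlier results of these data known, so their count beside the share of all genes is a description only. Mip was the only marker that fell, by 0.36 (adjusted p = 0.0475 in limma). That call ended with no filter, quantile normalization, an unmoderated model, only the groups compared or the replicate block. It also ended whenever any 1 array was left out. Of 14 midgut markers, 7 rose, 1 fell and 6 did not pass on the restricted diet, where 5.27% of all genes rose. One of the 7, the protease Jon66Ci, was under log2 4 on all normal-diet and all resveratrol arrays and entered the test only through the restricted-diet arrays, so it had to differ between the diets to be tested. Vha100-4, which did not pass (difference 2.46, adjusted p = 0.0872 in limma), also reached log2 4 on only 3 arrays. With a filter of log2 4 on 6 arrays, which left out Jon66Ci and Vha100-4, 12 markers were tested, 6 rose and the median difference was 0.52. With all 14 their median difference was 0.71, and 5 rose when each array was centred on its median. The mean of the 14 was 9.54, 8.35 and 10.04 on the normal diet, 11.39, 11.09 and 10.70 on the restricted diet, and 10.51, 10.09 and 9.80 with resveratrol. Among the 9 arrays, replicate 2 of the normal diet had the lowest midgut mean and the lowest ninaD value, and within the restricted diet both were highest in replicate 1 and lowest in replicate 3. With resveratrol the order differed, since ninaD was highest in replicate 3 and the midgut mean was lowest there.

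The midgut mean moved by 1.75 between the normal and the restricted diet, and ninaD relative to that mean by 0.04 (two-sided exact permutation p = 0.8, n = 3). That mean includes Jon66Ci, which entered only through its restricted-diet values, and Vha100-4, which reached log2 4 on only 3 arrays. The shift of the mean was thus in part fixed by the filter, so this p cannot show whether ninaD follows the midgut. The relative value had an SD of 0.78 on the normal diet and 0.04 on the restricted diet. This value near 0 depended on how the list was summarised. Jon66Ci changed by 3.36, and another protease, Jon25Biii, stood at 6.53, 4.92 and 10.22 on the normal diet and 14.65, 13.70 and 13.02 on the restricted diet. Without these genes, left out after their values were seen, the mean of the other 12 moved by 1.21 and ninaD relative to it by 0.57. Relative to the median of the 14 on each array, ninaD moved by -0.26. Leaving out certain arrays lowered the number of midgut markers that rose: 2 in the absence of normal-diet replicate 1, and 3 or 4 in the absence of replicate 1 or 2 of the restricted diet. With all arrays kept, 3 rose with no filter and 4 with an unmoderated model. Among the midgut proteases, Jon74E rose by 0.34, and its call ended in 1 of 19 other settings. Jon25Biii rose by 6.57 (adjusted p = 0.0166 in limma), a call that ended in 3 of 19 other settings. Of 6 germline genes none passed in limma (3 at an unadjusted p under 0.05) and all 6 differences were positive, with means of 5.63 to 6.56 on the normal diet and 7.05 to 8.50 on the restricted diet. Of 8 fat body genes, listed with earlier results known, 4 rose, where 5.27% of all genes rose. The number was 2 with no filter, and also without normal-diet replicate 1 or 2 or restricted-diet replicate 3. The part of gut, germline or fat body tissue in the ninaD values was not tested.

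**Figure D4:**
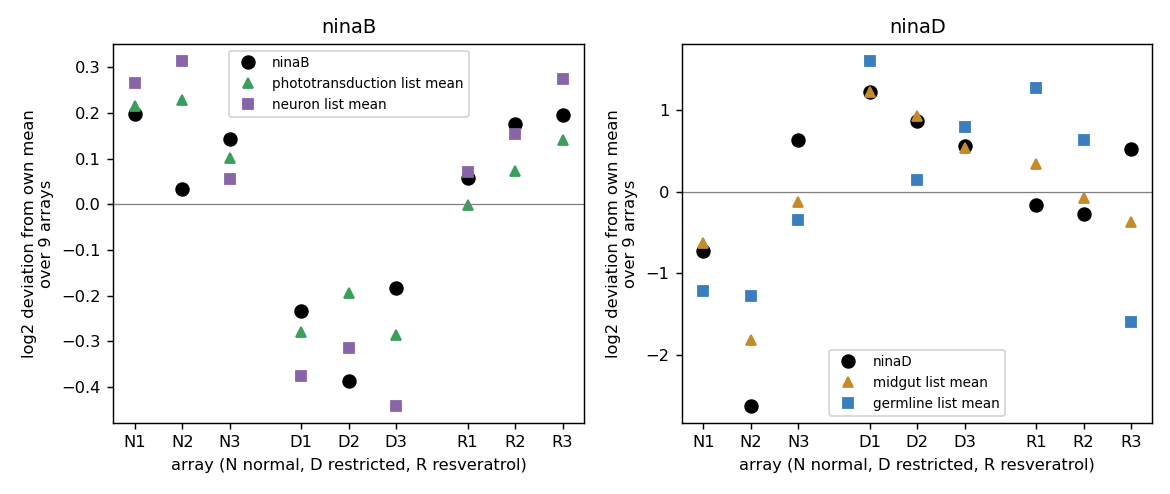
Log2 deviation of each array from the gene's or list's own mean over the 9 arrays, for ninaB with the phototransduction and neuron list means (left) and ninaD with the midgut and germline list means (right). On the left all restricted-diet points lie below 0; on the right normal-diet replicate 2 is the lowest point for ninaD and for the midgut mean.

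Genes whose values followed each member were ranked by Pearson correlation over the 9 arrays, as a description, since the arrays share 3 diets. For the mean of ninaB and ninaD, each centred on its own mean, the nearest genes were CG14820, CG18585, iotaTry, CG7025, CG4653 and vkg, with r from 0.937 to 0.959. ninaD sets that mean, as its variance over the arrays was 1.34 against 0.05 for ninaB. The members themselves correlated at -0.41. Each member was therefore ranked on its own, a step chosen after the values were seen.

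The 6 genes nearest to ninaD were CG18585 (r = 0.967), CG14820, CG7025, Ugt37B1, iotaTry and vkg (r = 0.952). CG18585, CG14820 and CG7025 are predicted metallocarboxypeptidases and iotaTry is a trypsin, while vkg encodes a collagen IV chain. iotaTry stood at 4.80, 2.62 and 7.05 on the normal diet, 8.70, 7.81 and 7.74 on the restricted diet and 7.32, 6.78 and 7.53 with resveratrol. Like ninaD, it was lowest in normal-diet replicate 2 and highest in restricted-diet replicate 1. CG18585 stood at 6.71, 2.70 and 8.59 on the normal diet and at 9.44 to 10.31 on the restricted diet. In normal-diet replicate 2, CG18585, iotaTry, CG7025 and CG14820 were under log2 4, at 2.70, 2.62, 2.84 and 3.53. Ugt37B1 and vkg stood at 5.65 and 10.97 there. How far these correlations rest on that array was not tested. Of these 6 genes only CG7025 passed on the restricted diet (adjusted p = 0.0492 in limma), and that call ended in 14 of 19 other settings.

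The 6 genes nearest to ninaB were Tpc1 (r = 0.983), Dscam2, Nckx30C, CG9003, wry and Cow (r = 0.946). All 6 fell on the restricted diet, by 0.31 to 1.18, and none passed with resveratrol; they were chosen for following ninaB, so their direction is no separate result. The call for CG9003 ended in 10 of 19 other settings. Nckx30C, a sodium, calcium and potassium exchanger, stood at 6.94, 6.94 and 7.03 on the normal diet, 6.50, 6.42 and 6.64 on the restricted diet and 6.83, 7.09 and 6.99 with resveratrol. Dscam2, a neuronal adhesion molecule, fell by 1.18. Its probe set stood at 4.75 to 4.93 on the restricted diet, close to the filter level of log2 4, and the gene's other probe sets were not tested. Tpc1, a mitochondrial carrier of thiamine pyrophosphate, fell by 0.33. No gene was among the nearest 6 of both members, which is no separate result, since members correlated at -0.41 cannot share genes that follow each so closely.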

How the data were processed

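RNA from 9 arrays, 3 for each diet, was analysed from the deposited series table. Its values are log2 probe set summaries that the authors made with GCRMA, per the submitters' processing notes; the version is not given in the sources used here, and the values (2.12 to 16.39) gave the log2 scale. GCRMA subtracts a modelled background, which can widen differences between low values. Gene names came from the platform annotation, updated by gene identifier to the fly assembly Release 6 plus ISO1 MT gene table. The 183 control probe sets were left out.

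A probe set was tested where at least 3 of 9 arrays reached log2 4, and the probe set with the highest mean stood for a gene. Among the probe sets that are not controls, 4720 named no gene and 402 named several. Those that were tested were each kept on their own and counted as a gene. limma 3.58.1 (R 4.3.3) was fitted to all 9 arrays with a mean per diet, with two-sided Benjamini-Hochberg adjustment over 8822 genes and a threshold of 0.05. The script was tested on simulated data. The labels give no batch, and precision is limited by the number of arrays. The members and lists were chosen with earlier results of these data known. Named genes were the members, up to 4 genes of smallest p per list, the whole chromophore list and the 6 nearest by correlation. Alternatives covered scaling, filter, probe set choice, variance model, arrays in the fit, a replicate term and the omission of each array.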

Additional observations from a re-analysis of the deposited data

How the results depend on the processing

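ninaB kept its negative change between the restricted and the normal diet in all 19 settings, and passed in 18 (adjusted p up to 0.0438 in the 10 settings with all replicates); with 1 array left out the change ran from -0.44 to -0.33. For ninaD this difference was 1.70 to 1.79 in those 10 settings and 0.93 to 2.55 with 1 array left out. The count of members passing was then 0 to 2. Between the restricted diet and resveratrol the ninaB call ended with median centring (-0.39), quantile normalization (-0.38), and, at an unmoved -0.41, with no filter, an unmoderated model, only the groups compared, or the replicate block (adjusted p = 0.0926); the count of members passing was then 0. With 1 array left out that change ran from -0.45 to -0.35 and the count was 0 to 1. Between resveratrol and the normal diet the ninaB sign turned with median centring (-0.092), quantile normalization (-0.012) and in 2 fits with 1 array left out (range -0.028 to 0.060). Median centring moved the median of all genes from -0.01 to -0.12 in that comparison.

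The number of genes passing between the restricted and the normal diet was 598 with no filter (17104 tested, unnamed probe sets included), 1017 unmoderated and 931 with the replicate block. It was 332 to 1671 with 1 array left out. For resveratrol against the normal diet it was 10, 9 and 1 in the same order, 47 with trend and robust options, 4 with only the groups compared, and 2 to 9 with 1 array left out. For the restricted diet against resveratrol it was 8, 7 and 0, 339 with trend and robust, 1 with only the groups compared, 4 with median centring (3 higher, against 40 of 224), 38 with quantile normalization (20 higher), and 0 to 290 with 1 array left out, with 2219 genes at an unadjusted p under 0.05 in limma. The causes were not tested. Replicate numbers were not treated as pairs, since 2 of 9 same-number pairs of arrays had deviations correlated over 0.1 and 2 of 9 arrays correlated best with their own number. For 31 other named genes, 509 of 587 values on the restricted diet kept direction and side of the threshold, 53 no longer passed, 18 newly passed and 7 turned sign. These were pinta with median centring (-0.058) and in 1 fit with an array left out (range -0.048 to 0.12), and Cnx99A with quantile normalization (0.012) and in 4 such fits (range -0.18 to 0.11). Ratios of Rh3 to Rh4 and Rh5 to Rh6, and genes following ninaE, had been planned and were not run, because the annotation used here names none of these genes. The recount of each gene list under these settings, and the other summaries of the midgut list, were chosen after seeing the data.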
